A study of Mus musculus with 6 samples.

Results

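Transcription factors that direct the building of the kidney were examined in cultured mouse mesangial cells with and without TGF-β1. The members were 8 genes chosen by name, Pax2, Pax8, Wt1, Lhx1, Hnf4a, Emx2, Sall1 and Foxd1, and 7 of them had a row among the 19730 rows of the expression table. Hnf4a was not analysed here. RNA-Seq had been performed on 3 Control and 3 TGF-β1 libraries of primary mesangial cells, the contractile cells that hold the capillary loops of the glomerulus together. All cultures were kept at passages 3 to 6 in high glucose (25.5 mM) with 20% foetal bovine serum, so high glucose and serum were shared by both groups, and the treated cultures had TGF-β1 added at 10 ng/ml over 72 h. The labels give no vehicle for the Control cultures and no strain or age of the animals. They do not say whether the libraries of a group came from separate cultures, so the p-values measure the spread between these libraries, which may be technical.

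These proteins act in order as the nephron forms. In the embryo, Emx2 and Lhx1 serve the nephric duct and its branching bud, Pax2 and Pax8 drive duct and nephron formation, Wt1 and Sall1 maintain and pattern the progenitors that condense around the bud, Foxd1 marks the stromal progenitors from which mesangial cells and pericytes descend, and Hnf4a acts in the proximal tubule. In the adult kidney most of them become restricted, with Wt1 best known from podocytes and Pax2 and Pax8 from tubules and the parietal cells of the glomerular capsule.

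TGF-β1 treatment was accompanied by lower expression of Pax8, Pax2, Foxd1, Wt1 and Sall1 and higher expression of Emx2, while Lhx1 was barely detected in either group. Expression is given as FPKM, a fragment count scaled by transcript length and library depth, which allows levels of different genes to be compared per length. Changes are differences of log2(FPKM + 1) between the TGF-β1 and Control means, a scale that understates the change of low genes, and they were tested with limma across all rows with a mean of at least 1 FPKM, calling an adjusted p under 0.05. The filter kept 6 of the 7 members, and Foxd1 passed it through its Control values only. All 6 were called, 5 lower and 1 higher, where 48.1% of the 11898 tested rows were called, 23.6% lower and 24.5% higher. The library values of the groups did not overlap for any of the 6, 5 with TGF-β1 lower and 1 with it higher, where 59.4% of tested rows did not overlap, 29.5% lower and 29.9% higher. In the fit on all rows without the filter the same 6 of 7 members were called, against 30.5% of all rows. The members were chosen with results of these data known, so their share is a description. The median change of the 6 members was -0.99 log2, and that of all tested rows was -0.02. Because RNA was taken from whole cultures, fewer cells of a type and less RNA per cell cannot be told apart.

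Depth was recovered from the steps between the lowest FPKM values of genes with a single annotated transcript. It was 10.1 to 11.1 M mapped fragments per library for an assumed fragment length of 200 nt, and at that depth 99.5 to 99.8% of the 910 to 1022 low values per library lay within 0.1 of a whole number of fragments. The replicate 2 libraries of both groups deviated together from their group means, with a correlation across tested rows of 0.23. Within replicates 1 and 3 alone 4 of the 7 members were called, Pax8, Pax2, Foxd1 and Emx2, where 4340 of 11896 tested rows were called.

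**Figure D1:**
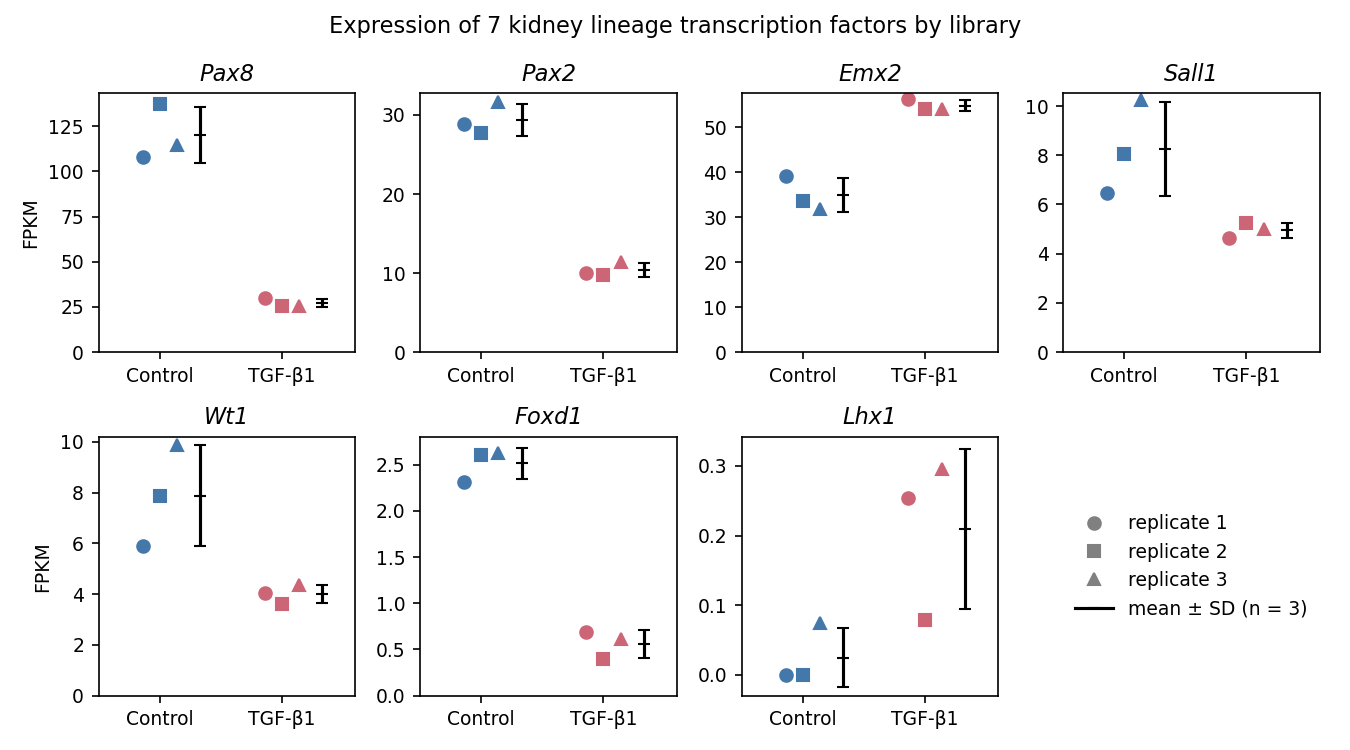
Expression in FPKM (vertical axes, each starting near 0) of the 7 genes in the 3 Control and 3 TGF-β1 libraries. Points are libraries, with the shape giving the replicate number, and black bars are the mean and SD (n = 3). Pax8, Pax2, Sall1, Wt1 and Foxd1 lie lower in every TGF-β1 library than in every Control library, and Emx2 lies higher.

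The PAX genes encode paired-domain proteins with overlapping roles in nephron formation, and they showed the largest falls in FPKM. Pax8 (mm9 chromosome 2, 24276071 to 24331119, minus strand, 12 exons in the transcript listed) was listed at 108, 137 and 115 FPKM in Control replicates 1 to 3 and at 29.9, 25.8 and 25.7 FPKM in TGF-β1 replicates 1 to 3. Every treated library was thus far below every Control library. Mean Pax8 was 120 ± 15.4 FPKM (SD, n = 3) in Control and 27.1 ± 2.40 FPKM with TGF-β1, a 4.42-fold lower level and a change of -2.10 log2 (SE 0.12, limma adjusted p 5.77e-05). It had stood above 95.6 to 96.8% of all rows in the Control libraries, and it stood above 82.1 to 83.9% of them after treatment.

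Pax2 (mm9 chromosome 19, 44830539 to 44912758, plus strand, 10 exons) was listed at 28.8, 27.7 and 31.6 FPKM in Control and at 9.97, 9.76 and 11.4 FPKM with TGF-β1. The libraries within each group were close and the groups lay far apart. The level was 29.4 ± 2.0 FPKM in Control and 10.4 ± 0.889 FPKM with TGF-β1, 2.83-fold lower, and the change was -1.42 log2 (SE 0.09, limma adjusted p 1.004e-04).

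The fall was deeper for Pax8 than for Pax2. The ratio of Pax8 to Pax2 FPKM was 3.74, 4.96 and 3.62 in Control replicates 1 to 3 and 3.00, 2.64 and 2.26 in the TGF-β1 replicates, so the ratios of the groups did not overlap. The log2 ratio was lower with TGF-β1 by a difference of -0.64, and p was 0.1 by exact permutation (two-sided), the lowest that can be reached with 3 against 3 libraries. The ratio was 1 of 4 between members that were computed, and its Benjamini-Hochberg adjusted p was 0.1. Pax8 was still the more abundant of the pair in each library.

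Both PAX loci carry other transcripts. Gm13415 lies on the opposite strand of Pax8 and shares exonic sequence with it, and the sources used here do not state if reads were assigned by strand. Gm13415 was listed at 0.706 to 0.845 FPKM in Control and 0.0342 to 0.375 FPKM with TGF-β1, a small fraction of the Pax8 level. Gm20395 lies within Pax2 on the opposite strand without exonic overlap. It was listed at 6.23 to 7.14 FPKM in Control and 0.742 to 2.44 FPKM with TGF-β1 (change -1.61 log2, limma adjusted p 0.00264). A second opposite-strand RNA within Pax2, 1700039E22Rik, was listed at 0.47 to 1.95 FPKM in Control and at 0 in every TGF-β1 library, and the fit without the filter did not call it (limma adjusted p 0.0575).

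Wt1 and Sall1, zinc finger factors of the nephron progenitors, were at lower levels and varied more in Control. Wt1 (mm9 chromosome 2, 104966686 to 105013773, plus strand) was listed at 5.88, 7.88 and 9.88 FPKM in Control replicates 1 to 3 and at 4.05, 3.61 and 4.35 FPKM with TGF-β1. Its groups did not overlap, although the lowest Control library, replicate 1, stood close to the highest treated library, replicate 3. Mean Wt1 was 7.88 ± 2.0 FPKM in Control and 4.006 ± 0.371 FPKM with TGF-β1, 1.97-fold lower, with a change of -0.80 log2 (SE 0.18, limma adjusted p 0.0110). Wt1 has 10 annotated transcripts, which include forms that differ in the zinc finger region, and the listed row does not separate them.

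Sall1 (mm9 chromosome 8, 91551147 to 91568061, minus strand, a single annotated transcript) was listed at 6.45, 8.07 and 10.2 FPKM in Control and at 4.62, 5.24 and 4.99 FPKM with TGF-β1. Control replicate 1 was lowest and Control replicate 3 highest for Sall1 as for Wt1. The level was 8.25 ± 1.89 FPKM in Control and 4.95 ± 0.311 FPKM with TGF-β1, 1.67-fold lower, and the change was -0.62 log2 (SE 0.16, limma adjusted p 0.0196).

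Within replicates 1 and 3 alone neither Wt1 nor Sall1 passed, with changes of -0.73 log2 for Wt1 (limma adjusted p 0.0817) and -0.66 log2 for Sall1 (limma adjusted p 0.0861). Wt1 was called in each fit that left out 1 library, with limma adjusted p-values of 0.00478 to 0.0370. Sall1 was not called without Control replicate 2 (-0.62 log2, limma adjusted p 0.0540), without TGF-β1 replicate 1 (-0.58 log2, 0.0649) or without TGF-β1 replicate 3 (-0.62 log2, 0.0534). The spread of the Control libraries, as the SD in percent of the mean, was 25.4% for Wt1 and 22.9% for Sall1, against 6.81% for Pax2 and 12.8% for Pax8.

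Foxd1 encodes a forkhead factor of the stromal progenitors, the lineage of mesangial cells, and its single exon lies at mm9 chromosome 13, 99124200 to 99126660, on the plus strand. It was listed at 2.32, 2.60 and 2.63 FPKM in Control replicates 1 to 3 and at 0.685, 0.393 and 0.613 FPKM with TGF-β1. At the recovered depth these values correspond to about 58.0, 65.0 and 64.0 fragments in Control and 17.0, 9.0 and 14.99 fragments in the treated libraries. Each treated library held far fewer Foxd1 fragments than any Control library. Mean Foxd1 was 2.52 ± 0.171 FPKM in Control and 0.564 ± 0.152 FPKM with TGF-β1, 4.46-fold lower, with a change of -1.17 log2 (SE 0.13, limma adjusted p 6.77e-04). With a pseudocount of 0.1 FPKM in place of 1 its change was -2.004 log2.

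Emx2, a homeobox factor of the nephric duct and ureteric bud, was the only tested member that was higher after treatment. Emx2 (mm9 chromosome 19, 59533180 to 59539847, plus strand) was listed at 39.1, 33.7 and 31.9 FPKM in Control replicates 1 to 3 and at 56.2, 54.1 and 54.0 FPKM in TGF-β1 replicates 1 to 3. The treated libraries were nearly equal, and all of them exceeded the highest Control library. The level rose from 34.9 ± 3.74 to 54.8 ± 1.26 FPKM, 1.57-fold, and the change was 0.64 log2 (SE 0.09, limma adjusted p 0.00221). When libraries were rescaled to a common sum of protein-coding rows, which moved the median change of all rows from -0.02 to -0.19 log2 and the calls from 2911 higher and 2810 lower to 2014 higher and 3951 lower, Emx2 was still higher, by 0.45 log2.

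Lhx1, a LIM-homeobox factor of the nephric duct and the early nephron, was at the edge of detection. Lhx1 (mm9 chromosome 11, 84331479 to 84338923, minus strand) was listed at 0, 0 and 0.0741 FPKM in Control and at 0.255, 0.0788 and 0.295 FPKM with TGF-β1. Control replicate 3 and TGF-β1 replicate 2 each held about 3.06 fragments, and the other treated libraries held about 10.7 and 12.3 fragments. The treated libraries thus ranged down to the level of the highest Control library. In the fit on all rows the change was 0.24 log2 with a 95% interval of 0.04 to 0.43 and a limma adjusted p of 0.0758, which does not pass. Its call depended on the setting. Quantile normalization, replicate 2 as a batch term and the removal of TGF-β1 replicate 2 each gave an adjusted p under 0.05, at 0.0405, 0.0451 and 0.0152, and over all settings it ranged up to 0.206.

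**Figure D2:**
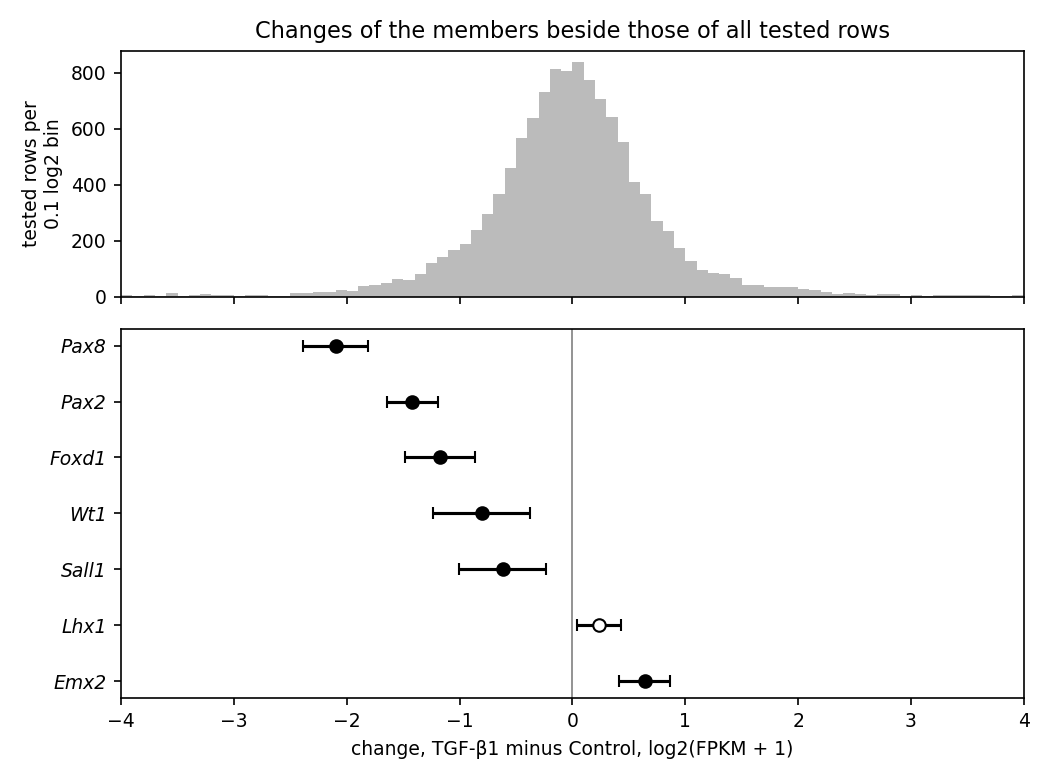
Upper panel, the number of tested rows per 0.1 log2 bin of the change between TGF-β1 and Control, drawn from -4 to 4. Lower panel, the change of each member on the same axis with its 95% interval from limma, filled where the adjusted p was under 0.05. Pax8 (-2.10) and Pax2 (-1.42) lie in the left tail of the rows, Emx2 (0.64) lies on the right, and Lhx1 is open and comes from the fit on all rows.

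In size on the log2(FPKM + 1) scale, the changes of the PAX genes were large among all genes and those of Sall1 and Emx2 were common ones. That scale understates the fall of Foxd1, whose means differed 4.46-fold, against 4.42-fold for Pax8 and 2.83-fold for Pax2. An absolute change larger than that of Pax8 was seen in 3.04% of tested rows, larger than that of Pax2 in 7.67% and larger than that of Foxd1 in 11.6%. For Wt1, Emx2 and Sall1 the shares were 22.3%, 30.6% and 31.9%. Among tested rows, 7.38% were called and at least 2-fold lower on the log2 scale, and the members with such a fall were Pax8, Pax2 and Foxd1. Among the same rows 6.56% were called and at least 2-fold higher, and no member was.

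The order of the members by level changed with treatment. In Control it ran Pax8, Emx2, Pax2, Sall1, Wt1, Foxd1 and Lhx1, and only the neighbours Sall1 and Wt1 overlapped in their library values. With TGF-β1 the order was Emx2, Pax8, Pax2, Sall1, Wt1, Foxd1 and Lhx1, with no overlap between neighbours. Pax8 contributed 56.7 to 63.2% of the members' summed FPKM in the Control libraries and 25.4 to 28.3% in the TGF-β1 libraries. The share of Emx2 was 15.5 to 20.5% in Control and 53.2 to 54.7% after treatment. The summed level itself was 203 ± 13.5 FPKM in Control and 102 ± 3.43 FPKM with TGF-β1 (SD, n = 3).

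**Figure D3:**
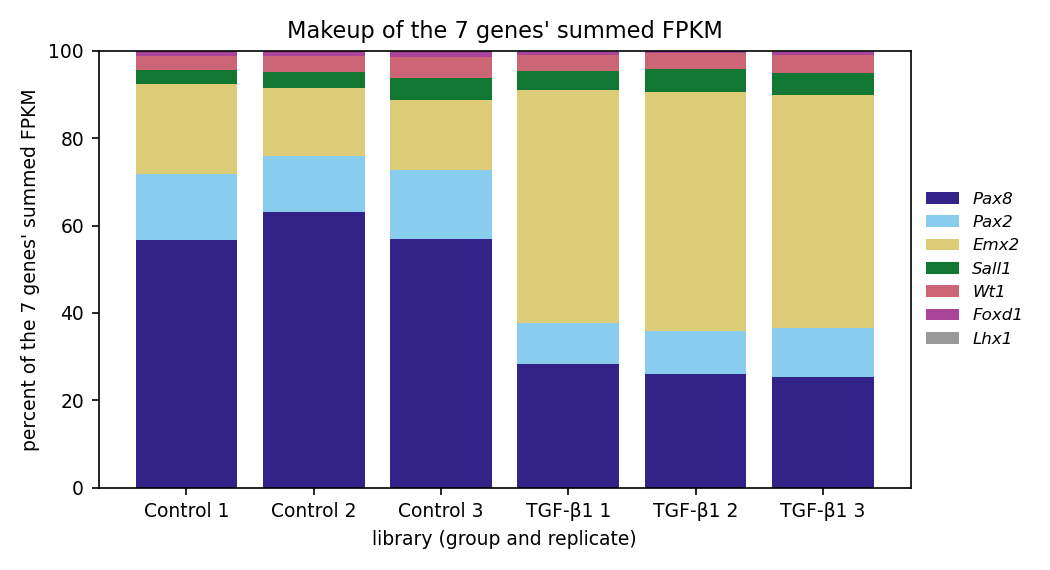
Each bar is a library (3 Control, 3 TGF-β1) and its colours give the percent of the 7 genes' summed FPKM that each gene held. Pax8 is the widest band in the Control libraries, at 56.7 to 63.2%, and Emx2 is the widest in the TGF-β1 libraries, at 53.2 to 54.7%.

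The promoters of the members were searched for letters bound by factors downstream of TGF-β1, since 5 members moved in the same direction. RefSeq promoter sequences on GRCm38.p6, a later build than the mm9 of the expression table, were used, each running from 250 bases before to 50 after an annotated start. Of the 8 members, 7 had 12 such promoters, and Wt1 had no entry. The SMAD half-site CAGAC was present on either strand in 5 of the 12 promoters, those of Pax2, Pax8, Sall1, Lhx1 and Foxd1, where 49.6% of all 32851 promoters held it. The palindrome GTCTAGAC, to which SMAD3 and SMAD4 bind with high affinity in vitro, was present in 1 member promoter, the farthest upstream of the 3 Pax2 starts, where 0.213% of all promoters held it. The 3 Pax2 promoters begin at 44746351, 44755502 and 44756656 on chromosome 19. Which of the annotated starts serves the transcript listed for a gene was not determined, so the palindrome may not lie at the start of the Pax2 transcript measured. The only match of Pax2 to CAGAC lay in the same promoter as the palindrome. The promoter of Emx2 held neither, but it held GGCGC, another of the letters searched, as did promoters of Lhx1, Pax2 and Sall1. Lhx1, which was not called lower, held CAGAC. The stretches are shown so that the place of these letters can be read, each 5′ to 3′ on the strand of the gene, with the match in capitals.
Pax2 (chr19:44746571-44746600, plus strand, match beginning 18 bases before the start): ggatttgcaggaGTCTAGACccgaggtttg
Pax8 (chr2:24475614-24475643, minus strand, match beginning 32 bases before the start): tgagagcctcgcCAGACacatctcccaggg
Foxd1 (chr13:98354209-98354238, plus strand, match beginning 24 bases before the start): ctgctataagcaCAGACaaggtccgccctc
Sall1 (chr8:89044303-89044332, minus strand, match beginning 158 bases before the start): tgtgtcacgatcCAGACtcaaaggcgctcc
Lhx1 (chr11:84525577-84525606, minus strand, match beginning 60 bases before the start): gctgattggtcaCAGACtgccgtgacgtcg
The other letters searched, on both strands, were GGCGC (7 of 12 promoters, 36.9% of all), the GC box GGGCGG (8 of 12, 35.7% of all), the AP-1 site TGACTCA (0 of 12, 5.2% of all) and the E-box CAGCTG (2 of 12, 16.3% of all). Some of these overlap each other in CpG-rich sequence. The promoters held a median of 7 CpG dinucleotides over all genes, and those of the members held 7 (Pax8), 7, 23 and 30 (Pax2), 15 (Foxd1), 18, 27 and 39 (Sall1), 26 (Emx2), 31 (Lhx1) and 4 in each of 2 (Hnf4a). A match is a description of the letters and not a measured site, and no binding was measured in these libraries.

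Genes that share a lineage or a pathway with the members were described next, from lists chosen with earlier results of these data known. Over all tested rows 48.1% were called, 23.6% lower and 24.5% higher, and the counts of each list are to be read beside these shares. Among regulators of the nephron progenitor, 14 genes had a row and 7 were tested. Of these 3 were called lower, 1 higher and 3 not called, which is 57.1% called. Osr1, which acts earliest in the intermediate mesoderm, fell from 18.1 ± 4.06 to 1.14 ± 0.245 FPKM (change -3.15 log2, limma adjusted p 6.82e-05). Eya1, a phosphatase and transcriptional coactivator, fell from 3.56 to 0.625 FPKM and Wnt4, the signal for the conversion of progenitors to epithelium, from 3.42 to 0.742 FPKM. Eya1 and Wnt4 passed the filter through their Control values only. Gdnf, the ligand that draws out the ureteric bud, rose from 1.19 ± 0.186 to 2.73 ± 0.0251 FPKM. Six2, the defining factor of the progenitor, had means of 0.0478 and 0.0191 FPKM.

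Transcription factors of the renal stroma and mesangium, the lineage that Foxd1 founds, were mostly lower where they were called. Of 17 with a row 13 were tested, and 7 were lower, 1 higher and 5 not called. This was 61.5% called, against 48.1% of all tested rows. Osr2 fell from 4.46 ± 2.03 to 0.647 ± 0.404 FPKM, Foxc1 from 48.4 ± 3.68 to 15.8 ± 1.15 FPKM and the nuclear receptor Nr2f2 from 57.9 ± 4.81 to 26.7 ± 1.57 FPKM, with changes of -1.70, -1.55 and -1.08 log2. Osr2 passed the filter through its Control values only. Rarb, a retinoic acid receptor, rose from 9.88 ± 1.73 to 33.3 ± 1.58 FPKM. The median change of the 13 was -0.44 log2.

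Genes of the nephric duct and ureteric bud, the domain of Emx2, were higher where they were called. Of 11 with a row 8 were tested, 6 were higher, 0 lower and 2 not called, with a median change of 1.69 log2. This was 75.0% called, against 48.1% of all tested rows. Sox8 rose from 1.44 ± 0.212 to 9.89 ± 2.30 FPKM, and the ETS factor Etv4, a target of RET signalling, from 13.6 ± 1.503 to 46.8 ± 1.34 FPKM. The ligands Wnt11 and Wnt7b rose from 0.234 to 3.98 FPKM and from 0.546 to 4.27 FPKM. Both passed the filter through their TGF-β1 values only, so their place in the count and the median depends on their rise. Ret itself, the receptor for GDNF, was under the filter, at means of 0.0079 FPKM in Control and 0.302 FPKM with TGF-β1. The most abundant gene not called was Sox9, at 8.80 ± 1.16 and 12.5 ± 2.35 FPKM (limma adjusted p 0.0571). As background, ETS factors such as Etv4 also answer to receptor tyrosine kinase signalling outside the kidney.

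Transcription factors of the tubule were lower where they were called. Of 16 with a row 7 were tested, and 4 were lower, 0 higher and 3 not called. This was 57.1% called, against 48.1% of all tested rows. Maf fell from 75.8 ± 4.41 to 25.2 ± 1.01 FPKM, Tfcp2l1 from 4.62 ± 0.290 to 0.658 ± 0.0914 FPKM and the bile acid receptor Nr1h4 from 1.88 ± 0.205 to 0.243 ± 0.0216 FPKM. Tfcp2l1 and Nr1h4 passed the filter through their Control values only. Esrra was not called, at 9.20 ± 1.20 and 11.3 ± 5.40 FPKM. Of the proximal tubule genes, many of them targets of HNF4A, 14 had a row and only 2 were tested. Both passed the filter through their Control values only, as Foxd1 did, and both were lower, the water channel Aqp1 from 10.4 ± 1.62 to 0.169 ± 0.0855 FPKM and the peptidase Anpep from 2.08 ± 0.425 to 0.0299 ± 0.0307 FPKM. Without the filter 3 of the 14 were lower and 1, Cubn, was higher, where 30.5% of all rows were called.

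Podocyte genes, among which Wt1 has known targets, went both ways. Of 15 with a row 10 were tested, with 5 lower, 3 higher and 2 not called. This was 80.0% called, against 48.1% of all tested rows. Cdkn1c fell from 13.04 ± 0.468 to 1.33 ± 0.155 FPKM and Magi2 from 3.01 to 1.49 FPKM. Nes, the intermediate filament nestin, rose from 24.9 ± 4.23 to 108.8 ± 2.83 FPKM. Podxl, the podocalyxin gene that WT1 activates, fell from 2.21 ± 0.239 to 1.18 ± 0.298 FPKM (limma adjusted p 0.0185). Cd2ap was not called, at 33.5 ± 3.90 and 39.2 ± 1.94 FPKM.

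**Figure D4:**
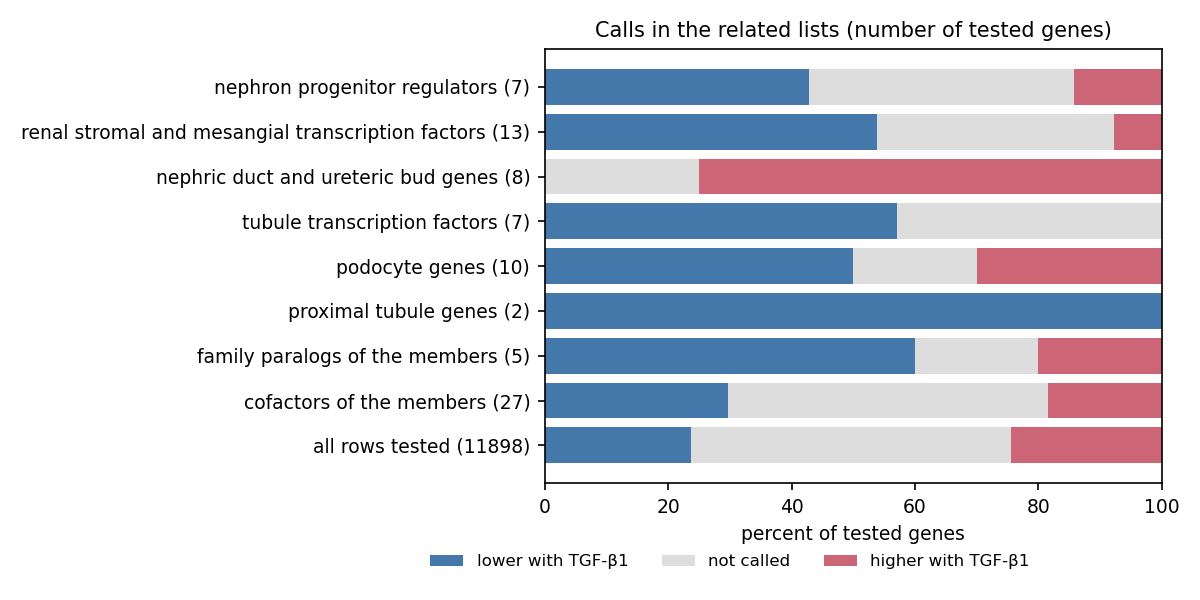
Percent of the tested genes of each list that were lower with TGF-β1, not called or higher (limma adjusted p under 0.05), with the number of tested genes in brackets and all 11898 tested rows as the lowest bar. The duct and bud list has 6 of 8 genes higher and none lower, while 7 of 13 stromal and 4 of 7 tubule factors are lower. Of all tested rows 23.6% are lower and 24.5% higher.

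Relatives of the members were mostly low. Of 13 paralogs with a row 5 were tested, and 3 were lower, 1 higher and 1 not called. This was 80.0% called, against 48.1% of all tested rows. Pax9 fell from 2.35 ± 0.508 to 0.826 ± 0.165 FPKM and Lhx9 from 1.67 ± 0.314 to 0.832 ± 0.0923 FPKM. Pax9 and Lhx9 passed the filter through their Control values only. Sall2 was not called, at 10.5 ± 0.104 and 9.26 ± 0.807 FPKM, and was above Sall1 in both groups. The early growth response factors, whose zinc fingers resemble those of WT1, split, with Egr1 lower (46.5 ± 9.13 to 17.8 ± 2.22 FPKM) and Egr2 higher (1.07 ± 0.175 to 2.86 ± 0.0965 FPKM). Hnf4g, the paralog of Hnf4a, had means of 0.131 and 0.0625 FPKM.

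Cofactors of the members, such as Groucho corepressors of PAX proteins, LIM-domain binding proteins and the NuRD complex that SALL1 recruits, were called at the rate of all rows. Of 27 tested 13 were called, 48.1%, with 8 lower and 5 higher. Tle2 fell from 58.1 ± 7.61 to 12.2 ± 2.99 FPKM, Tle6 from 37.3 ± 4.94 to 17.9 ± 1.65 FPKM and Ldb1, the partner of LHX1, from 104 ± 8.27 to 62.8 ± 15.9 FPKM. Basp1, which turns WT1 from activator to repressor, rose from 130 ± 15.3 to 289 ± 30.8 FPKM. Rbbp4 of the NuRD complex was not called, at 144 ± 13.95 and 121 ± 5.07 FPKM.

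The identity of the cultures was examined with marker genes. Of all tested rows 23.6% were called lower and 24.5% higher, and the counts of tested markers are to be read beside these shares. The fit on all rows called 3153 of 19730 rows lower and 2873 higher. Marker counts from that fit are to be read beside those numbers. Of 12 mesangial markers with a row 7 were tested, and 5 were higher, 1 lower and 1, Gata3, not called. Pdgfrb was the lower one, at 37.5 ± 4.82 FPKM in Control and 29.2 ± 0.751 FPKM with TGF-β1 (limma adjusted p 0.0396). Acta2, Tagln, Vim and Fn1 were abundant and rose, and Serpine2 rose too. The fit on all rows called 6 higher, Cspg4 (0.0735 to 1.21 FPKM) among them, and 0 lower. Itga8, Des, Thy1 and Agtr1a were near 0 in both groups, with means of at most 0.271 FPKM. Of 7 podocyte markers with a row, Wt1 included, 4 were tested and all 4 were lower, and their summed level was 28.4 to 32.8 FPKM in Control and 15.3 to 15.9 FPKM with TGF-β1. The defining podocyte gene Nphs1 was near 0, with means of at most 0.222 FPKM.

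Of 7 parietal and general epithelial markers with a row, 3 were tested, Cdh16, Cldn1 and Cldn2, and all 3 fell. Cldn2 passed the filter through its Control values only. The summed level of that list was 229 to 253 FPKM in Control and 39.6 to 45.8 FPKM with TGF-β1. Nearly all of the Control sum came from these genes, Cdh16 at 114 to 146 FPKM, Cldn1 at 73.0 to 82.7 FPKM and Cldn2 at 32.0 to 33.5 FPKM. Cdh16, the kidney-specific cadherin of tubules, fell from 130 ± 16.1 to 6.30 ± 0.564 FPKM, while E-cadherin (Cdh1) and Krt8 were near 0 in both groups, with means of at most 0.0765 FPKM. The list did not move as a whole, since the keratins Krt18 (0.279 to 1.57 FPKM, limma adjusted p 0.00143) and Krt19 (0.156 to 1.06 FPKM, limma adjusted p 0.00563) rose in the fit on all rows, which called 3 of the 7 lower and 2 higher. Of 5 proximal tubule markers with a row, 1 was tested and lower (Aqp1), and the summed level, most of it Aqp1 in Control, was 11.8 to 15.6 FPKM in Control and 1.93 to 2.002 FPKM with TGF-β1. The fit on all rows called 2 of these 5 lower and 1 higher, the endocytic receptor Cubn (0.636 to 1.28 FPKM, limma adjusted p 0.00774). No distal tubule or collecting duct marker of 6 with a row was tested, and Aqp2 was listed at 0 in Control. In the fit on all rows the sodium channel subunit Scnn1a fell from 1.18 to 0.288 FPKM (limma adjusted p 0.00194) and the cotransporter Slc12a1 rose from 0.0615 to 0.377 FPKM (limma adjusted p 0.0125). Of 8 endothelial markers with a row only Ehd3 was tested, and limma did not call it (unadjusted p 0.0622, adjusted p 0.108), while Kdr and Cdh5 were listed at 0 in Control, and the fit on all rows called 1 of the 8 higher (Flt1) and 1 lower (Vwf). Of 7 macrophage markers with a row 3 were tested and 2 were lower, Cd14 and Csf1r. Csf1r passed the filter through its Control values only, and Ptprc was listed at 0 in Control. Fcgr3 went the other way, at 0 in every Control library and at 1.16, 0.721 and 0.840 FPKM with TGF-β1 (limma adjusted p 0.00104 in the fit on all rows). The part of these other cell types in the falls of Pax8, Pax2 and Wt1 was not tested.

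For each tested member, the rows with the most similar pattern were named by Pearson's r of log2(FPKM + 1) over the 6 libraries, as a description. For Pax8 they were Gm10748, Gaa and Kcnk5 (r = 0.9990, 0.9989 and 0.9987), and for Pax2 they were 2210404J11Rik, Zfp1 and Limch1 (r = 0.9993, 0.9989 and 0.9988). Foxd1 was closest to Npepl1, Hcfc1r1 and Egfl8, and Emx2 to Ado, Abcf2 and Akirin1. Wt1 was closest to Lyplal1, Ocel1 and Gpank1, and Sall1 to Abca3, Taf8 and Fhod1. With 3 libraries a group such values mostly follow the group difference, and 216 rows exceeded r = 0.99 with Pax8 and 189 with Pax2, but 4 with Wt1 and 6 with Sall1.

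**Figure D5:**
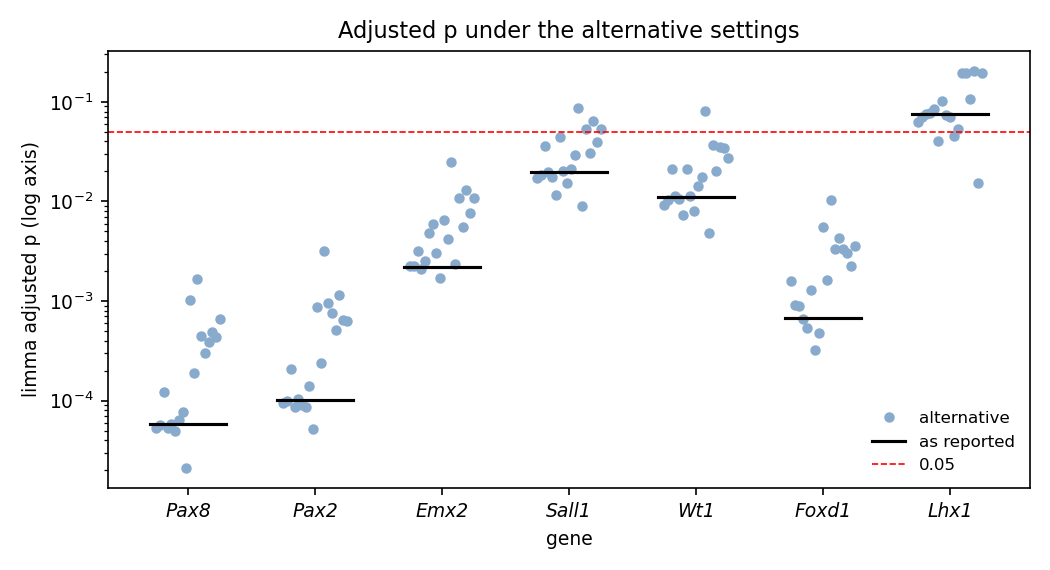
Limma adjusted p (log axis) of each member as reported (black line) and under each alternative setting (points), with 0.05 as a dashed line. All points of Pax8, Pax2, Emx2 and Foxd1 lie under 0.05, while points of Sall1 and Wt1 rise to 0.0861 and 0.0817 and those of Lhx1 lie on both sides.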

How the data were processed

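RNA-Seq was performed on 3 Control and 3 TGF-β1 libraries of primary mouse mesangial cells. The authors aligned reads to mm9 with TopHat (TopHat2 2.0.11 in the submitters' processing notes, while the methods name another version) and deposited FPKM values estimated with Cufflinks. Whether a row is a gene or transcript value, and whether strand was used, is not given in the sources used here. Groups came from the labels.

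FPKM values were analysed as log2(FPKM + 1) with limma 3.58.1 in R 4.3.3 (lmFit, eBayes with a mean-variance trend, two-sided), over rows with a mean of at least 1 FPKM, and p-values were adjusted by Benjamini-Hochberg over all 11898 of them. Lhx1, under that filter, came from the same fit on all 19730 rows. No count model was used. The fit was tested on simulated data. Single values were also compared by exact permutation, whose smallest two-sided p with 3 against 3 is 0.1. Depth, 10.1 to 11.1 M fragments, was recovered from FPKM steps and limits low values by counting error.

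The members and gene lists were chosen with earlier results of these data known. From each list the 4 called genes with the largest absolute change and the most abundant gene not called were named, together with paralogs of at least 1 FPKM and, for each tested member, the 3 rows of highest r. Six2, Ret, Podxl, Hnf4g and the markers named singly were added for their known roles after their values were seen. Some genes that this rule names are not reported here, though the counts of their lists include them. Alternatives were 19 other pseudocounts, filters, scalings, model terms, thresholds and omitted libraries.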

Additional observations from a re-analysis of the deposited data

How the results depend on the processing

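No member changed direction under any of the 19 alternatives, and Pax8, Pax2, Emx2 and Foxd1 were called in every one that tested them (Foxd1 was not tested at a mean of at least 3 FPKM, nor was Lhx1). The number of members called ranged from 4 to 7, where 6 were called as reported. Over the same alternatives 3672 to 6026 rows were called, and the number of rows tested ranged from 9941 to 19730. Within replicates 1 and 3, Wt1 (-0.73 log2) and Sall1 (-0.66 log2) were not called, and at an adjusted p under 0.01 neither were Wt1 (-0.80) and Sall1 (-0.62), where 3672 rows were called against 5721. Leaving out 1 library at a time gave -0.76 to -0.47 log2 for Sall1, which was lost without Control replicate 2, TGF-β1 replicate 1 or TGF-β1 replicate 3, and 0.18 to 0.32 log2 for Lhx1, which passed without TGF-β1 replicate 2. Lhx1 also passed under quantile normalization (0.30) and with replicate 2 as a batch term (0.24). The cause was not tested. With the replicate number as a block, 5391 rows and 6 members were called (limma adjusted p 0.0144 for Wt1, 0.0210 for Sall1 and 0.0698 for Lhx1), and the block changed no member's call. Same-numbered libraries had deviation correlations of 0.0921, 0.232 and 0.0853, and those of different numbers ranged from -0.194 to 0.117. The reported fit did not pair the libraries, and whether the numbers pair them was not tested. Of the genes in the related lists 49 were called as reported, where 48.1% of all tested rows were. Under the alternatives 35 to 56 were called, to be read beside the 3672 to 6026 rows called there. Depth limits Lhx1, at 0 to 12 fragments per library, and the treated Foxd1 libraries.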
